A study of Mus musculus with 8 samples.

Results

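The proteasome genes described here are the mouse protein-coding genes whose symbol runs from Psma to Psmg followed by a number. RefSeq on GRCm38.p6 lists 51 of them, and all 51 were matched by position to one of the 55401 genes in the deposited table of raw counts. Pseudogenes of the family were left out. Psmc3ip, a factor of meiotic recombination, and Psme3ip1, a partner protein of the activator Psme3, carry the symbol pattern without being subunits, so that 49 members belong to the proteasome itself or help to build or regulate it. In RNA immunoprecipitation (RIP), an antibody pulls a protein out of a tissue lysate and the RNA that comes with it is sequenced. There were 3 libraries from RIP with an antibody against CaMKIIβ, 3 from RIP with IgG as the control antibody, and 2 libraries of Input, RNA taken without an antibody. All 8 were labelled as hippocampus of C57BL/6 mice, with total RNA extracted in TRIzol and treated with DNase. The labels name no mutation or treatment, give no age or sex, and do not say how many animals were used or whether tissue was pooled. CaMKIIβ is the β form of CaMKII, a kinase of neurons that calcium and calmodulin activate. The title of the study names long noncoding RNAs, so the protein-coding genes treated here are a readout beside its stated subject.

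The proteasome is the protease that degrades proteins tagged with ubiquitin. Its 20S core is a barrel: an outer ring of α subunits (Psma genes) at each end gates the entrance, and the inner rings of β subunits (Psmb genes) hold the cutting sites. The 19S regulatory particle caps the barrel. Its base has a ring of ATPases (Psmc genes) that unfold substrates, and its other subunits (most Psmd genes) form scaffolds, bind ubiquitin and remove it. Activators (Psme genes) can take the place of 19S, Psmf1 is an inhibitor protein of the core, and Psmg1 to Psmg4, Psmd5, Psmd9 and Psmd10 are chaperones of assembly. In neurons, protein turnover at synapses depends on the proteasome, and the ATPase Psmc5 (Rpt6) is a known phosphorylation target of CaMKII.

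The libraries held 17273957 to 25299903 counts in CaMKIIβ RIP, 22061623 to 28138289 in IgG RIP, and 17776157 and 21359418 in Input. The 51 genes took up 0.178% to 0.180% of counts in CaMKIIβ RIP, 0.174% to 0.185% in IgG RIP, and 0.216% and 0.221% in Input. Mitochondrial genes took up 0.360% to 0.656%, 0.756% to 0.858%, and 1.92% and 2.08% in the same groups. Replicate 2 of CaMKIIβ RIP differed most from the rest: among 48 members it was the highest of the 8 libraries for 11 and the lowest for 18. The median coefficient of variation of a member was 19.6% in CaMKIIβ RIP (12.6% without replicate 2), 8.79% in IgG RIP and 5.67% in Input. All 12 hippocampal and telencephalic markers were found, with summed levels of 1229 to 1586, 1506 to 1541, and 1150 and 1170 CPM in CaMKIIβ RIP, IgG RIP and Input, where CPM is the usual unit of counts scaled for library size. All 12 cerebellar markers were found too, at 3691 to 4031, 3825 to 3898, and 4224 and 4308 CPM, so that the label names a region whose markers were present together with those of another.

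CPM here are counts scaled with TMM, a trimmed mean of M-values over all genes, on 1 scale for the 8 libraries, and group values are mean ± SD. A member was tested if it passed edgeR's filter on low counts, which 48 of the 51 did in each comparison. Psma8, a subunit of germ cells, had 0, 0 and 1 counts in CaMKIIβ RIP, 2, 4 and 7 counts in IgG RIP, and 4 and 8 counts in Input. Psmb11, a subunit of the thymus, had 4, 0 and 0 counts in CaMKIIβ RIP, 2, 1 and 0 counts in IgG RIP, and 1 and 5 counts in Input. Psme2b, a copy of the activator gene Psme2, had 0 counts in every library, and 0 counts allow up to 3, which is 0.107 to 0.174 CPM before scaling. These 3 genes were not tested, and this floor covers counting error only. Of the 6 pseudogenes of the family in RefSeq, 5 were found in the table with at most 10 counts in any library. Reads that fit a gene and a copy equally may have been dropped or split by the counting, whose setting is not given in the sources used here. Of the 51 genes, 15 shared exon bases with another gene, and Psmc3ip was the member above 20% (21.2%, with Mlx). The genes of the table that carry Psma2, Psmc3 and Psmd9 extend beyond these genes in RefSeq, so that their counts may include reads from further exons.

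To set genes side by side, CPM were divided by the summed exon length of the gene in kb. On this scale the 31 constitutive subunits of the 20S rings and 19S spanned 6.64 to 48.0 CPM per kb in CaMKIIβ RIP, 6.03 to 53.6 in IgG RIP and 8.82 to 44.9 in Input. In Input that is a 5.09-fold range, with a coefficient of variation of 41.4% over the genes. The 20S core and the 19S particle each hold their own constitutive subunits in equal copies. Psmc5 was the highest member in Input, at 44.9 ± 2.396 CPM per kb (SD, n = 2), followed by the scaffold subunit Psmd2 at 33.5 ± 2.61. The ATPase Psmc1 came next at 31.1 ± 1.26, then the α subunit Psma6 at 29.3 ± 3.75, the activator Psme3 at 28.1 ± 2.74 and the catalytic subunit Psmb5 at 27.5 ± 4.97. Psmc5 exceeded Psmd2 by more than either SD, and from Psmd2 to Psmb5 each member differed from the next by less than the larger of their SDs. The inducible immunoproteasome subunits lay far below, at 3.04 ± 0.148 CPM per kb for Psmb10, 0.184 ± 0.152 for Psmb8 and 0.1503 ± 0.0467 for Psmb9 in Input. The values of Psma2, Psmc3 and Psmd9 rest on the exon length of the longer gene in the table. For every gene the divisor is the length of all its annotated exons, which a single transcript need not hold. It was 899 bases for Psmb5, 1394 for Psmc5, 4038 for Psmd2, 3894 for Psma3 and 4595 for Psmb1. How far the order and the range follow from this length was not tested.

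**Figure D1:**
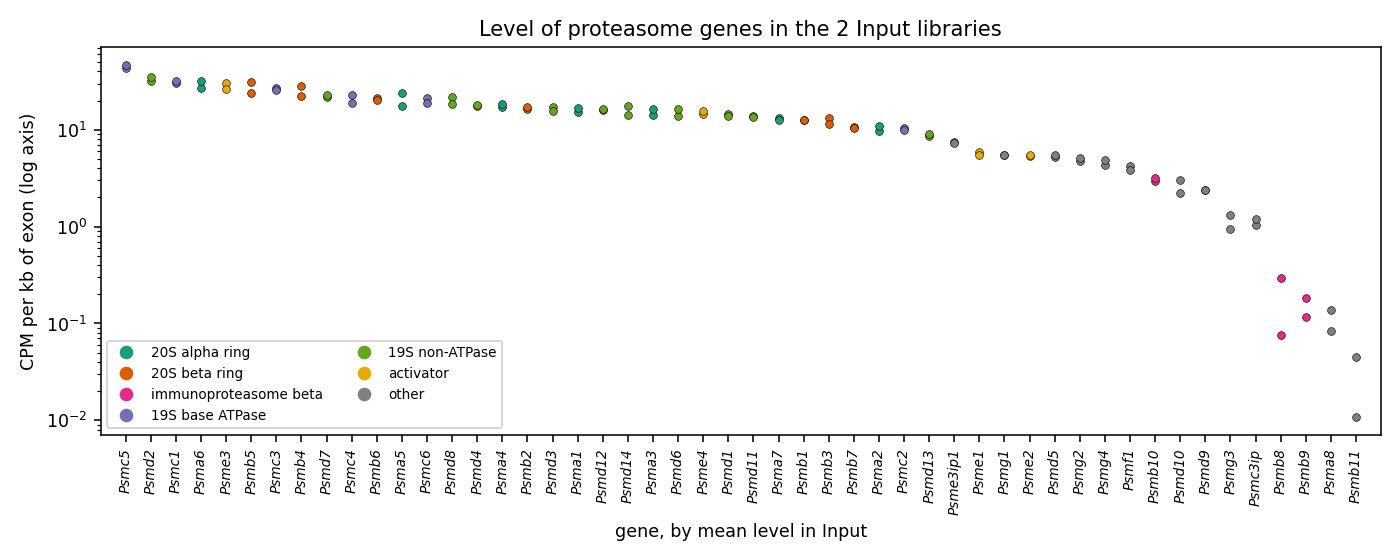
Level of each proteasome gene in the 2 Input libraries, in CPM per kb of exon on a log axis, with genes ordered by their mean and coloured by role. Psmc5 is the highest at 44.9, the 31 constitutive subunits reach down to 8.82, Psmb8 and Psmb9 lie below 0.3, and Psme2b, at 0 in both, is not drawn.

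IgG RIP against Input shows which transcripts took a larger or smaller share of the RNA after a pull-down with an antibody that has no stated target. Members of the 20S core fell or did not pass, and members of 19S went both ways. Of the 7 α-ring genes, 6 fell and none rose, with a median log2 fold change of -0.71, and of the 7 β-ring genes 2 fell and none rose. In 19S, 3 of the 6 ATPase genes rose and 1 fell, and of the 11 non-ATPase genes 5 rose and 5 fell. In all, 10 of 48 members were higher and 18 lower at an adjusted p under 0.05 in edgeR's quasi-likelihood test with Benjamini-Hochberg adjustment over all genes, where 20.1% of the 22342 genes tested were higher and 18.7% lower. The median over the 48 members was -0.21, and that over all genes tested was -0.02. With library size in place of TMM, the median of all genes was -0.25, the split of the members was 4 higher and 27 lower, and the medians of the 19S ATPases and non-ATPases turned to -0.13 and -0.08, against 0.10 and 0.14 with TMM. With the trend of fold change on exon length removed, the split was 12 higher and 13 lower. The split was 6 higher and 15 lower without Input 1, and 5 higher and 12 lower without Input 2. Of the 28 calls, those of Psma1, Psma2, Psma3, Psma4, Psma6, Psmb4, Psmc3, Psmc6 and Psme4 passed in each of 14 alternative fits. Those of Psmb1, Psmc4, Psmd3, Psmd8, Psme2 and Psme3ip1 ended in the fit of all 8 libraries alone.

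CaMKIIβ RIP against Input asks the same of the CaMKIIβ antibody, and it shares its Input libraries with the comparison above. Here 4 of 48 members fell and 0 rose, where 3.4% of the 22095 genes tested were lower and 5.06% higher. The 4 were the α subunits Psma4 and Psma6, the ATPase Psmc6 and the activator Psme4. The median over the members was -0.31, against -0.12 over all genes tested. The α ring had the lowest median of the subcomplexes with more than 4 genes, at -0.83, and the libraries of CaMKIIβ RIP lay below both Input libraries for 6 of its 7 genes, a separation that 28.5% of all genes tested had. Library size scaling gave 0 higher and 8 lower members, with a median of -0.29 over all genes, and RLE scaling gave 1 higher and 4 lower. Without CaMKIIβ RIP replicate 1, 0 members and 0 genes in all passed the test. Without replicate 2, 3 members were higher and 8 lower, and without replicate 3, 1 was higher and 5 lower. Leaving out Input 1 gave 3 lower members and leaving out Input 2 gave 1. In bulk RNA, neither comparison with Input tells which cell type an RNA came from. Both set RNA from a pull-down against RNA taken without an antibody, so a fold change is one of share in the library, not of expression. Its cause was not tested. Nor do the labels say whether the libraries of a group came from separate animals, so the p-values measure the spread between these libraries, which may be technical.

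CaMKIIβ RIP against IgG RIP compares the antibody of interest with its control. None of the 48 members passed the test (edgeR's quasi-likelihood test, adjusted p 0.982 to 0.999), and neither did any of the 20566 genes tested, which is 0% in either direction. DESeq2 and limma-voom also called 0 members. At an unadjusted p under 0.05 there were 4 members, where 3.51% of all genes tested had one. The libraries of the 2 antibodies did not overlap for 6 members, 1 higher and 5 lower in CaMKIIβ RIP, against 5.12% and 6.93% of all genes tested. The 95% interval of the difference lay within a 2-fold change for 38 of the 48 members, against 10691 of the 20566 genes tested. It did so for all 17 ATPase and non-ATPase genes of 19S. The median over the members was -0.02, as over all genes tested.

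**Figure D2:**
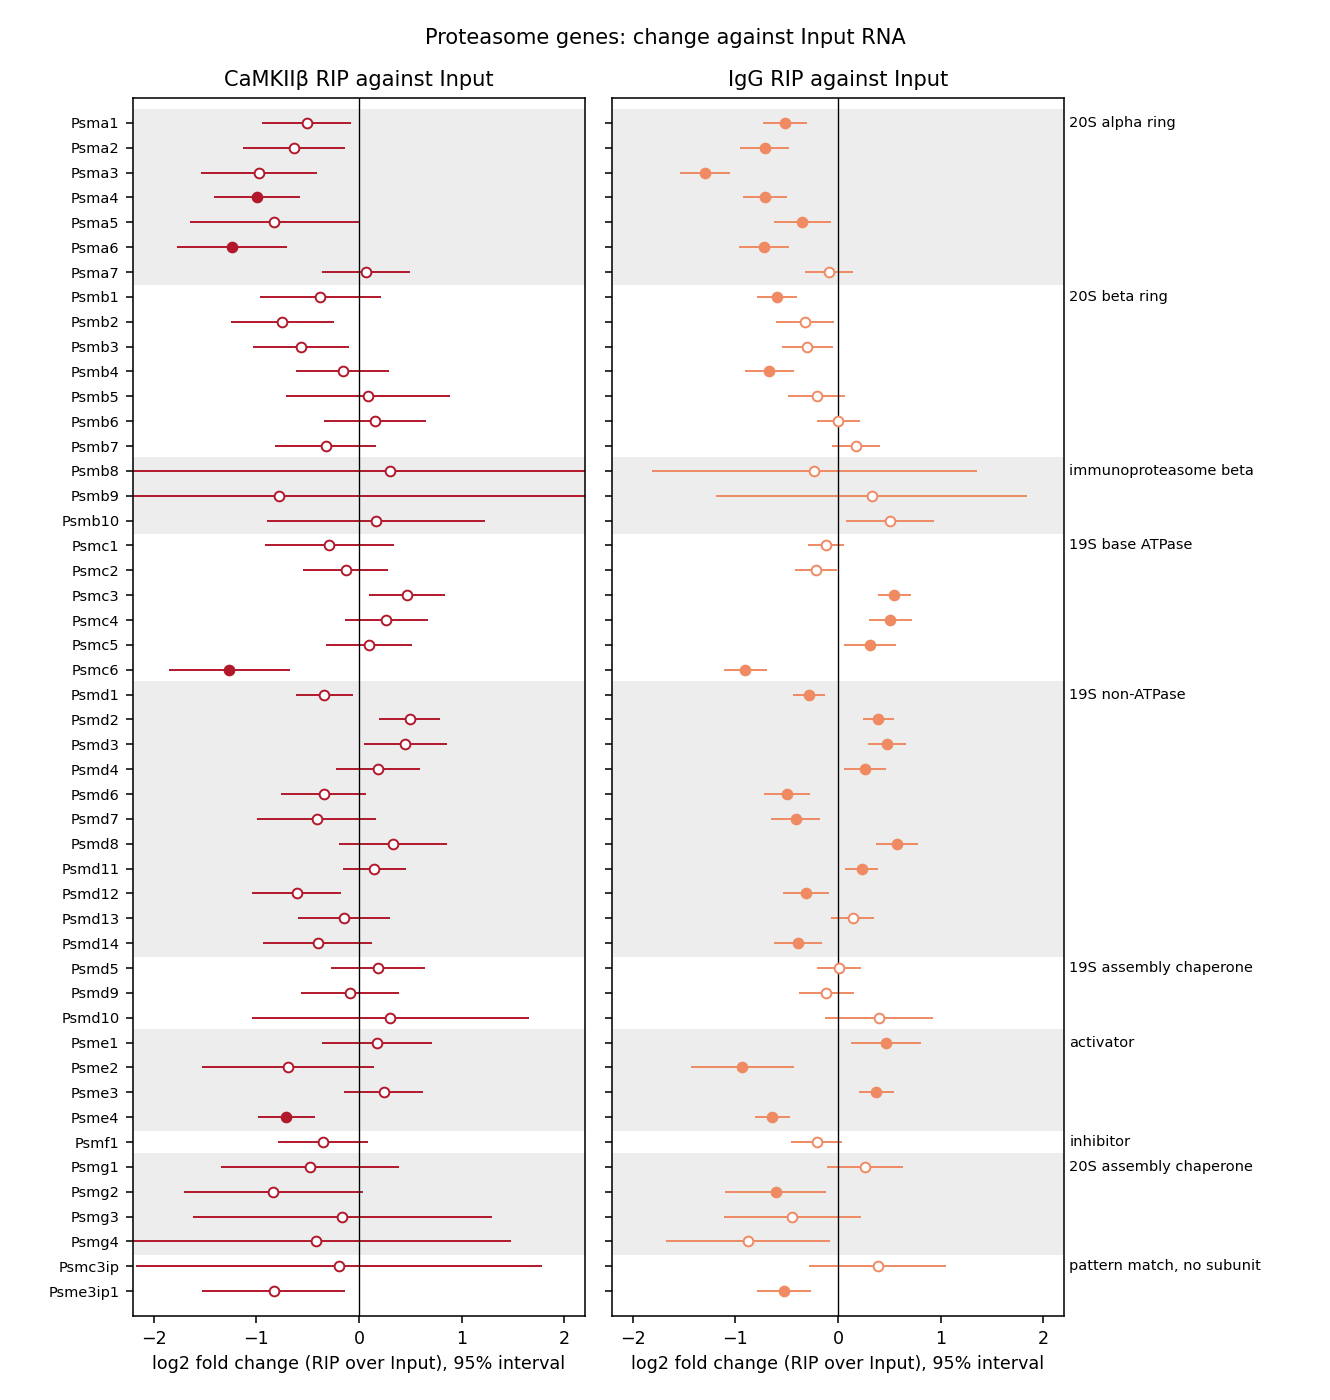
Log2 fold change of the 48 tested proteasome genes, by role, in CaMKIIβ RIP against Input (left, dark red) and in IgG RIP against Input (right, orange). Points are estimates of edgeR's fit, lines 95% intervals (those of Psmb8, Psmb9 and Psmg4 run past the left axis), and filled points have an adjusted p under 0.05; 6 of 7 α-ring genes are filled on the right and lie left of 0, and 4 genes are filled on the left panel.

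The α ring (Psma1 to Psma7) forms the gate of the core. Psma3 had 23.4, 27.6 and 40.2 CPM in CaMKIIβ RIP, 22.3, 26.9 and 21.2 CPM in IgG RIP, and 55.1 and 64.4 CPM in Input. Both groups of RIP libraries lay below both Input libraries, and CaMKIIβ RIP replicate 3 was the highest of the 6. Against Input, Psma3 fell in IgG RIP by 2.46-fold (log2 fold change -1.30 ± 0.11 (SE), adjusted p = 1.31e-07), and in CaMKIIβ RIP its value was -0.97 ± 0.24 with an adjusted p of 0.0512. With library size scaling, DESeq2, the replicate block or all 8 libraries in 1 fit, Psma3 passed as lower in CaMKIIβ RIP too. Psma6, at chr12:55384222-55418454, + strand (GRCm38.p6, gene positions as in the deposited table), had 14.6, 12.5 and 18.8 CPM in CaMKIIβ RIP, 20.1, 20.5 and 22.8 CPM in IgG RIP, and 32.9 and 39.4 CPM in Input. The CaMKIIβ RIP libraries were the lowest, the IgG RIP libraries next, and the 3 groups did not overlap. Psma6 fell against Input in CaMKIIβ RIP (-1.24 ± 0.23, adjusted p = 0.0211) and in IgG RIP (-0.72 ± 0.12, adjusted p = 7.92e-05). The difference between the 2 antibodies, -0.45 ± 0.20, did not pass (adjusted p = 0.982). Psma4 had 22.7, 18.2 and 22.7 CPM in CaMKIIβ RIP, 23.8, 26.2 and 24.9 CPM in IgG RIP, and 40.4 and 44.2 CPM in Input, again with both antibodies below Input throughout. It fell in CaMKIIβ RIP (-0.99 ± 0.18, adjusted p = 0.0197) and in IgG RIP (-0.71 ± 0.10, adjusted p = 2.68e-05) against Input. With the trend of fold change on exon length removed, the calls of Psma6 and Psma4 in CaMKIIβ RIP against Input ended (adjusted p 0.067 and 0.051), as they did without CaMKIIβ RIP replicate 1 or Input 2. The other falls in IgG RIP against Input were those of Psma1 (-0.51), Psma2 (-0.71) and Psma5 (-0.35). The call of Psma5 (adjusted p = 0.0458) ended in 9 of the 14 alternatives, DESeq2, RLE scaling and the removed exon length trend among them, which leaves 5 of the 7 genes lower. Psma7 was the exception, with 34.4, 48.1 and 42.4 CPM in CaMKIIβ RIP, 41.02, 31.7 and 35.1 CPM in IgG RIP, and 40.5 and 39.04 CPM in Input. Its libraries overlapped between all groups, and its values were 0.07 ± 0.18 in CaMKIIβ RIP and -0.09 ± 0.11 in IgG RIP against Input.

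In the β ring, 3 subunits cut peptides: Psmb5 after hydrophobic residues, Psmb6 after acidic ones and Psmb7 after basic ones. Psmb5 had 22.1, 38.9 and 17.7 CPM in CaMKIIβ RIP, 18.8, 20.8 and 22.2 CPM in IgG RIP, and 21.5 and 27.8 CPM in Input. CaMKIIβ RIP replicate 2 was the highest of all, and the groups overlapped with or without it. Psmb6 had 38.5, 54.9 and 36.4 CPM in CaMKIIβ RIP, 39.4, 34.6 and 38.2 CPM in IgG RIP, and 39.6 and 37.97 CPM in Input, and here too replicate 2 was the one library above the rest. Psmb7 had 35.5, 23.5 and 26.4 CPM in CaMKIIβ RIP, 42.1, 40.9 and 33.6 CPM in IgG RIP, and 36.3 and 35.2 CPM in Input, with CaMKIIβ RIP replicate 1 between the Input libraries and replicates 2 and 3 below them. None of these 3 passed the test in any comparison. Against Input their log2 fold changes were 0.09 ± 0.34, 0.16 ± 0.21 and -0.33 ± 0.21 with the CaMKIIβ antibody, and -0.21 ± 0.13, 0.00 ± 0.10 and 0.17 ± 0.11 with IgG. Psmb7 had 1 of the 3 smallest unadjusted p-values in CaMKIIβ RIP against IgG RIP (-0.44 ± 0.18, interval -0.85 to -0.03, unadjusted p = 0.0397, adjusted p = 0.982 in edgeR). The smallest was that of Psmb4, a β subunit without a cutting site. Psmb4 had 36.7, 49.2 and 46.4 CPM in CaMKIIβ RIP, 31.8, 28.9 and 28.98 CPM in IgG RIP, and 42.99 and 55.5 CPM in Input. Every CaMKIIβ RIP library was above every IgG RIP library, and CaMKIIβ RIP overlapped with Input. The difference between the antibodies was 0.57 ± 0.15 (interval 0.23 to 0.92, edgeR's unadjusted p = 0.00401, adjusted p = 0.982). Psmb4 fell in IgG RIP against Input (-0.67 ± 0.11, adjusted p = 1.28e-04), as did Psmb1 (-0.59 ± 0.09, adjusted p = 5.19e-05). Psmb2 and Psmb3 had adjusted p-values of 0.0673 and 0.0534 there.

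The immunoproteasome subunits Psmb8, Psmb9 and Psmb10 replace the constitutive catalytic subunits in immune cells and under interferon. Psmb10 had 8.805, 4.76 and 3.85 CPM in CaMKIIβ RIP, 7.47, 6.21 and 7.59 CPM in IgG RIP, and 5.01 and 5.36 CPM in Input. The IgG RIP libraries lay above both Input libraries, and the CaMKIIβ RIP libraries spread over both. Psmb8 had 9, 32 and 2 counts in CaMKIIβ RIP, 13, 7 and 17 counts in IgG RIP, and 5 and 23 counts in Input, and Psmb9 had 18, 0 and 4 counts in CaMKIIβ RIP, 24, 10 and 12 counts in IgG RIP, and 13 and 10 counts in Input. At such depths a change could not be seen: the interval of Psmb8 in IgG RIP against Input ran from -1.81 to 1.35 and that of Psmb9 from -1.19 to 1.84. No immunoproteasome gene passed the test in any comparison. Psmb10 came closest, in IgG RIP against Input (0.51 ± 0.20, adjusted p = 0.05903), and passed without IgG RIP replicate 2 and with the exon length trend removed. Microglial markers, of which 11 of 12 were found, summed to 141 to 176 CPM in CaMKIIβ RIP, 147 to 160 in IgG RIP, and 138 and 142 in Input.

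**Figure D3:**
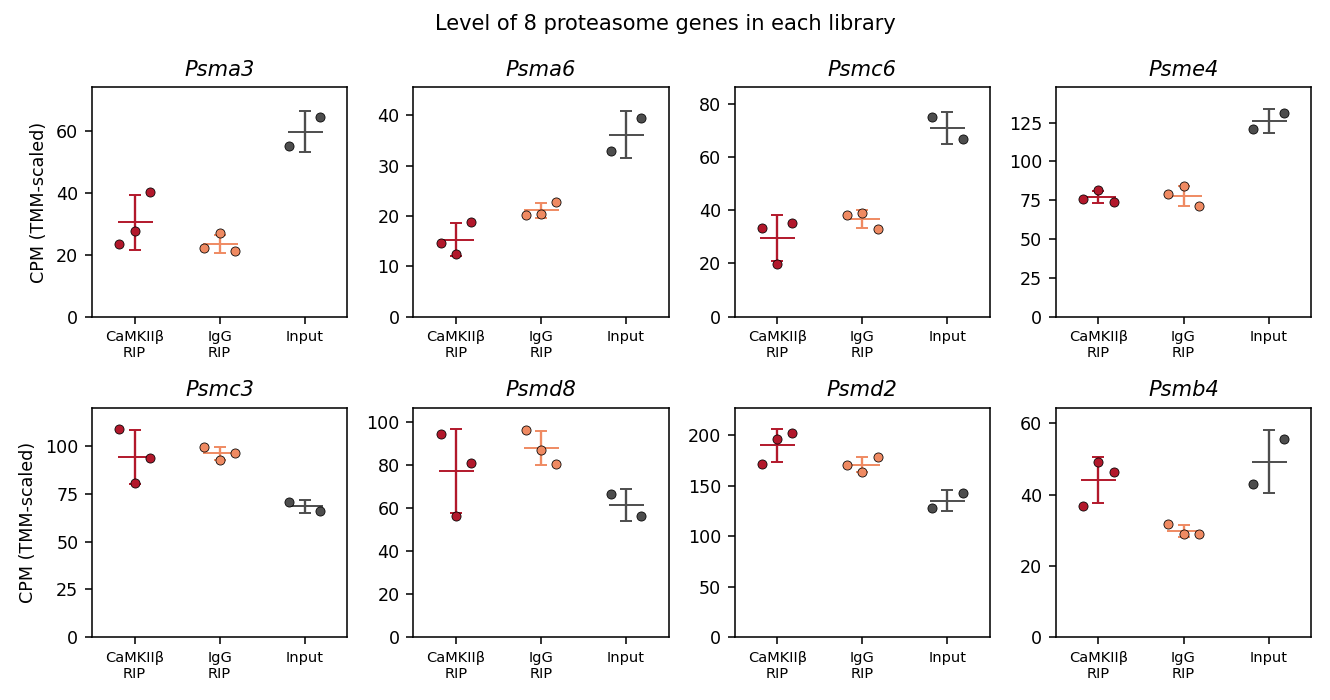
Level of 8 proteasome genes in each library, in TMM-scaled CPM from 0, with 1 point a library, a horizontal bar at the group mean and whiskers of 1 SD (n = 3, 3 and 2). The RIP points of Psma3, Psma6, Psmc6 and Psme4 lie below both Input points, those of Psmc3 and Psmd2 above, CaMKIIβ RIP and Input overlap for Psmd8, and for Psmb4 the CaMKIIβ RIP points lie above the IgG RIP points.

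The 6 ATPases of the 19S base did not move together. Psmc6 (Rpt4), at chr14:45329788-45349705, + strand, had 33.5, 19.7 and 35.4 CPM in CaMKIIβ RIP, 38.1, 38.9 and 32.8 CPM in IgG RIP, and 75.2 and 66.7 CPM in Input. All 6 RIP libraries lay below both Input libraries, and CaMKIIβ RIP replicate 2 was the lowest. Psmc6 fell 2.397-fold in CaMKIIβ RIP (log2 fold change -1.26 ± 0.25, adjusted p = 0.0268) and 1.87-fold in IgG RIP (-0.90 ± 0.10, adjusted p = 1.25e-06) against Input. Psmc3 (Rpt5) went the other way, with 109, 80.6 and 93.8 CPM in CaMKIIβ RIP, 99.5, 92.8 and 96.6 CPM in IgG RIP, and 70.8 and 66.2 CPM in Input. The lowest RIP library was above both Input libraries. Psmc3 rose in IgG RIP against Input (0.55 ± 0.08, adjusted p = 2.03e-05), and its value in CaMKIIβ RIP was 0.47 ± 0.16 (adjusted p = 0.127). In CaMKIIβ RIP against Input, Psmc3 passed in 6 of the 14 alternatives, DESeq2 and all 8 libraries in 1 fit among them. For Psmc3, 8.25% of exon bases of the gene in the table are shared with Slc39a13 on the other strand. Psmc4 (Rpt3) had 60.7, 47.4 and 55.8 CPM in CaMKIIβ RIP, 65.1, 64.7 and 57.5 CPM in IgG RIP, and 49.96 and 41.2 CPM in Input, with IgG RIP above Input throughout and CaMKIIβ RIP overlapping with it. It rose in IgG RIP (0.51 ± 0.10, adjusted p = 5.27e-04) against Input, with 0.26 ± 0.17 in CaMKIIβ RIP. Psmc5, the CaMKII target named above, at chr11:106256154-106263120, + strand, had 73.3, 53.1 and 74.5 CPM in CaMKIIβ RIP, 77.6, 59.9 and 86.9 CPM in IgG RIP, and 60.2 and 64.95 CPM in Input. Its libraries overlapped between every pair of groups. Psmc5 passed narrowly in IgG RIP against Input (0.31 ± 0.12, adjusted p = 0.0459), a call that ended in 8 of the 14 alternatives: without IgG RIP replicate 1 or 3 or either Input library, with library size scaling (0.08), with limma-voom, with the replicate block and with all 8 libraries in 1 fit. With the CaMKIIβ antibody, Psmc5 was at 0.10 ± 0.18 against Input and -0.15 ± 0.17 against IgG RIP (interval -0.53 to 0.24). Psmc1 and Psmc2 passed in no comparison.

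Among the non-ATPase subunits of 19S, Psmd2 (Rpn1), the scaffold that docks ubiquitin shuttles, was the highest per kb of exon in Input. Psmd2 had 171, 197 and 202 CPM in CaMKIIβ RIP, 170.4, 163 and 179 CPM in IgG RIP, and 128 and 143 CPM in Input. Every RIP library was above both Input libraries. It rose in IgG RIP against Input (0.39 ± 0.07, adjusted p = 2.71e-04), and in CaMKIIβ RIP it was at 0.49 ± 0.13 with an adjusted p of 0.0557. The lid subunit Psmd8 (Rpn12) had 94.5, 56.2 and 80.7 CPM in CaMKIIβ RIP, 96.2, 86.98 and 80.6 CPM in IgG RIP, and 66.6 and 56.2 CPM in Input. IgG RIP lay above Input, and CaMKIIβ RIP replicate 2 was level with the lower Input library. Psmd8 rose in IgG RIP (0.57 ± 0.09, adjusted p = 1.13e-04), the largest rise of a member there. Psmd3 (Rpn3), another lid subunit, had 118, 127 and 89.7 CPM in CaMKIIβ RIP, 105, 100.3 and 122 CPM in IgG RIP, and 86.1 and 77.2 CPM in Input, with all RIP libraries above Input, and rose in IgG RIP (0.47 ± 0.09, adjusted p = 3.29e-04). Psmd11 rose by less (0.23). Psmd4 (Rpn10), a ubiquitin receptor, had 62.9, 46.6 and 62.2 CPM in CaMKIIβ RIP, 63.2, 51.3 and 60.1 CPM in IgG RIP, and 49.9 and 50.9 CPM in Input. IgG RIP was just above Input and CaMKIIβ RIP overlapped with it. The rise of Psmd4 in IgG RIP (0.26 ± 0.10, adjusted p = 0.0394) ended without IgG RIP replicate 1 or 3 or either Input library, and was 0.04 with library size scaling. With that scaling, Psmd8 and Psmd3 were the 2 non-ATPase genes still higher, and with all 8 libraries in 1 fit 0 were higher.

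The 5 non-ATPase genes that fell in IgG RIP against Input were Psmd6 (-0.50), Psmd7 (-0.41), Psmd14 (-0.39), Psmd12 (-0.31) and Psmd1 (-0.28). Psmd14 (Rpn11), the enzyme that removes ubiquitin chains from substrates, had 28.1, 43.1 and 30.5 CPM in CaMKIIβ RIP, 30.4, 35.6 and 32.8 CPM in IgG RIP, and 39.8 and 49.7 CPM in Input. IgG RIP lay below both Input libraries, and CaMKIIβ RIP replicate 2 lay between them. Its fall in IgG RIP (-0.39 ± 0.11, adjusted p = 0.00936) ended without IgG RIP replicate 1 or Input 2, with all 8 libraries in 1 fit and with the exon length trend removed, and its value in CaMKIIβ RIP was -0.40 ± 0.23. With the exon length trend removed, Psmd1 and Psmd6 were the non-ATPase genes still lower, and the same held for all 8 libraries in 1 fit. The call of Psmd1 ended without Input 1, that of Psmd6 without Input 2. In the main fit, no non-ATPase gene passed in CaMKIIβ RIP against Input. In the 14 alternatives of that comparison, Psmd2 passed in 9, Psmd3 in 4, Psmd12 in 3 and Psmd1 in 2. Psmd7 and Psmd8 passed in 1 each. Where Psmd2 passed with DESeq2 or all 8 libraries in 1 fit, it was higher.

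Levels were also summed over each subcomplex. The α ring summed to 165, 183 and 197 CPM in CaMKIIβ RIP, 183, 185 and 174 in IgG RIP, and 273 and 309 in Input. The 19S subunits summed to 1156, 1030 and 1156 CPM in CaMKIIβ RIP, 1160, 1098 and 1145 in IgG RIP, and 1089 and 1084 in Input. The α-ring sums of all RIP libraries were below those of Input, while the 19S sums of CaMKIIβ RIP lay on both sides of Input. The ratio of the 2 rings of the core to 19S does not depend on the scaling of a library. It was 0.318, 0.430 and 0.335 in CaMKIIβ RIP, 0.339, 0.351 and 0.321 in IgG RIP, and 0.478 and 0.526 in Input. CaMKIIβ RIP replicate 2 was the nearest to Input, and no RIP library reached it. Sums weigh abundant members most, and no test was made on them.

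**Figure D4:**
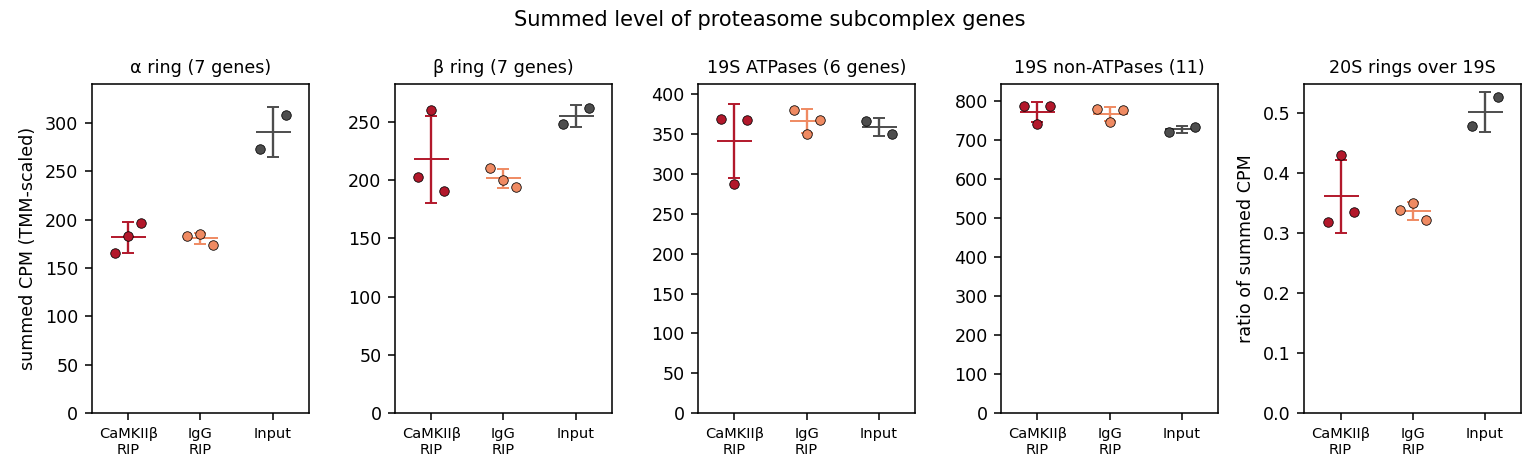
Summed level of the α-ring, β-ring, 19S ATPase and 19S non-ATPase genes in each library, in TMM-scaled CPM from 0, and at the right the ratio of both 20S rings to 19S, with 1 point a library, group means and whiskers of 1 SD. The ratio is 0.318 to 0.430 in CaMKIIβ RIP, 0.321 to 0.351 in IgG RIP, and 0.478 and 0.526 in Input.

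Psme4 (PA200), a large activator that caps the core in the nucleus, at chr11:30771726-30880361, + strand, had 75.9, 81.5 and 73.97 CPM in CaMKIIβ RIP, 78.9, 83.97 and 71.04 CPM in IgG RIP, and 121 and 132 CPM in Input. All RIP libraries were below both Input libraries, and the 2 antibodies overlapped. Psme4 fell against Input in CaMKIIβ RIP (-0.71 ± 0.12, adjusted p = 0.0166) and in IgG RIP (-0.64 ± 0.08, adjusted p = 7.24e-06), and CaMKIIβ RIP was 0.997 times IgG RIP (log2 interval -0.26 to 0.25). The call in CaMKIIβ RIP ended without CaMKIIβ RIP replicate 1 or either Input library. Psme3 (PA28γ), a nuclear activator, had 113, 97.9 and 82.5 CPM in CaMKIIβ RIP, 108, 101 and 101 CPM in IgG RIP, and 88.6 and 77.1 CPM in Input. IgG RIP lay above Input, and CaMKIIβ RIP overlapped with it. Psme3 rose in IgG RIP (0.37 ± 0.08, adjusted p = 0.00108), a call that ended without Input 2, with library size scaling and with all 8 libraries in 1 fit, and was at 0.24 ± 0.16 in CaMKIIβ RIP. Psme1 and Psme2 encode the 2 partners of PA28αβ, which joins the core as 1 mixed ring. Psme2 had 7.11, 3.83 and 6.74 CPM in CaMKIIβ RIP, 6.07, 3.06 and 5.27 CPM in IgG RIP, and 9.496 and 9.57 CPM in Input, and every RIP library was below both Input libraries. It fell in IgG RIP against Input (-0.93 ± 0.24, adjusted p = 0.004704), while its partner Psme1 rose (0.47 ± 0.16, adjusted p = 0.0286). Psme1 had 14.4, 15.1 and 12.7 CPM in CaMKIIβ RIP, 15.4, 20.1 and 14.3 CPM in IgG RIP, and 12.95 and 12.01 CPM in Input, and its IgG RIP libraries lay above Input. The call of Psme1 ended with library size scaling, with all 8 libraries in 1 fit, and without IgG RIP replicate 2 or either Input library.

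Psmf1 (PI31), the inhibitor, had 22.3, 20.3 and 18.4 CPM in CaMKIIβ RIP, 22.7, 19.5 and 22.5 CPM in IgG RIP, and 26.9 and 24.97 CPM in Input. Both antibodies lay below Input, by -0.35 ± 0.19 in CaMKIIβ RIP and -0.21 ± 0.12 in IgG RIP, and neither difference passed (adjusted p = 0.352 and 0.1802). Of the chaperones of the core, Psmg2 fell in IgG RIP against Input (-0.61 ± 0.23, adjusted p = 0.04797), a call that ended in 9 of the 14 alternatives, DESeq2 and either Input library left out among them. Psmg1, its partner, had 5.002, 3.95 and 7.03 CPM in CaMKIIβ RIP, 8.28, 9.36 and 8.11 CPM in IgG RIP, and 7.43 and 7.42 CPM in Input. All CaMKIIβ RIP libraries were below all IgG RIP and Input libraries. Psmg1 was 1 of the 3 members with the smallest p between the antibodies (-0.67 ± 0.30, interval -1.34 to -0.01, edgeR's unadjusted p = 0.0465, adjusted p = 0.982). The 19S chaperones Psmd5, Psmd9 and Psmd10 passed in no comparison. Psme3ip1 fell in IgG RIP against Input (-0.53 ± 0.12, adjusted p = 0.00241), and Psmc3ip passed in none.

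Of 25 genes that work with the proteasome outside the symbol rule, 24 were found and tested, and Paaf1 was not analysed here. In IgG RIP against Input 10 of the 24 rose and 9 fell, beside the 20.1% and 18.7% of all genes given above. In CaMKIIβ RIP against Input 5 rose and 6 fell, where 5.06% and 3.4% of all genes did, and library size scaling gave 2 higher and 6 lower. Between the antibodies 0 passed. Uba1, the main enzyme that activates ubiquitin, had 623, 592 and 486 CPM in CaMKIIβ RIP, 567, 545 and 609 CPM in IgG RIP, and 289 and 280.2 CPM in Input. Every RIP library of Uba1 was above both Input libraries. It rose in CaMKIIβ RIP (0.997 ± 0.13, adjusted p = 0.00933) and in IgG RIP (1.07 ± 0.06, adjusted p = 2.66e-09) against Input. Rps27a, which encodes ubiquitin fused to a ribosomal protein, had 12.3, 12.1 and 11.8 CPM in CaMKIIβ RIP, 17.4, 15.4 and 15.97 CPM in IgG RIP, and 34.9 and 51.7 CPM in Input. Both antibodies lay far below Input. Rps27a fell in CaMKIIβ RIP (-1.84 ± 0.22, adjusted p = 0.00718) and in IgG RIP (-1.36 ± 0.14, adjusted p = 8.20e-07). The 19S-bound deubiquitinase Uchl5 fell by 2.86-fold in CaMKIIβ RIP (-1.51 ± 0.30, adjusted p = 0.0264) and by 2.45-fold in IgG RIP (-1.29 ± 0.23, adjusted p = 2.45e-04) against Input. The ubiquitin ligase Ube3a fell in IgG RIP (-1.32 ± 0.07, adjusted p = 4.21e-10); a long antisense transcript runs over this gene, and without a stated strand setting their reads cannot be told apart. All 11 calls in CaMKIIβ RIP against Input ended without CaMKIIβ RIP replicate 1.

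Markers of glia, of vessels and of neurons moved with the antibodies as well. Of 5 astrocyte markers found, 4 rose in CaMKIIβ RIP and 5 in IgG RIP against Input, where 5.06% and 20.1% of all genes did, and they summed to 7839 to 9238 CPM in CaMKIIβ RIP, 8676 to 9936 in IgG RIP, and 3971 and 4063 in Input. The 6 oligodendrocyte markers summed to 9895 to 10273, 9388 to 9994, and 5703 and 5722 CPM. Of 10 endothelial and mural markers, 3 rose and 1 fell in CaMKIIβ RIP, and 7 rose and 1 fell in IgG RIP, with a median log2 fold change of 0.59 in both. They summed to 348 to 405, 387 to 402, and 297 and 301 CPM. Of 8 neuron markers, 2 rose and 2 fell in CaMKIIβ RIP, and 5 rose and 3 fell in IgG RIP. Of 11 microglial markers, 1 rose and 0 fell in CaMKIIβ RIP, and 2 rose and 2 fell in IgG RIP. Over all genes tested, 3.4% fell in CaMKIIβ RIP and 18.7% in IgG RIP. The part of these markers and of the mitochondrial share in the values of the proteasome genes was not tested. Longer genes tended to higher fold changes over all genes tested with either antibody against Input (Spearman's rho of 0.17 and 0.16 across genes, which are not independent replicates). Over the 48 members rho was 0.10 and 0.003.

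Promoter sequence is given for 4 members that mark the contrast: Psma3 and Psmc6, among the 4 largest falls in IgG RIP against Input, Psmd2, which rose there, and Psme4, which fell with both antibodies. Each line holds the 250 bases before the start of the gene in RefSeq on GRCm38.p6, all on the + strand, at chr12:70974373-70974622, chr14:45329574-45329823, chr16:20651402-20651651 and chr11:30771525-30771774. In the deposited table Psma3 starts at 70974621, Psmc6 at 45329788 and Psme4 at 30771726, so the ends of these windows lie inside the counted gene. Capitals mark matches, on either strand, to TGACNNNGC (the core of the antioxidant response element, to which Nfe2l1 binds as an inducer of proteasome genes), CCGGAAG (a core of the ETS family) or CCAAT (the CCAAT box). The 3 patterns were free to overlap.
Psma3: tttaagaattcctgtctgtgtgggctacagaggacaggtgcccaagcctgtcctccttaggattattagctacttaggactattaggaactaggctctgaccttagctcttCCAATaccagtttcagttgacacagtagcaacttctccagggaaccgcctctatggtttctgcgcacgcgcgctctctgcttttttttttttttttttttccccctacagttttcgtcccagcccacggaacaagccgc
Psmc6: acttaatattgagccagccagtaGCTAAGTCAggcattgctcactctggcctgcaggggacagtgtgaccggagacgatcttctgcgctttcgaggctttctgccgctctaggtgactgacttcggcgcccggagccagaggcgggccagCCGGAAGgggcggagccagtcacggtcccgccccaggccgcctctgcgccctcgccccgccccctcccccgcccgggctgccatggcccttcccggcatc
Psmd2: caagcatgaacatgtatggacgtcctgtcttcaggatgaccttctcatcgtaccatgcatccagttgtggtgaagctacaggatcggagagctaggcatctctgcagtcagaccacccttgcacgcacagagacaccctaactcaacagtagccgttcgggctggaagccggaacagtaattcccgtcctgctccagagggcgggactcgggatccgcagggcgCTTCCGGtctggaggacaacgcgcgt
Psme4: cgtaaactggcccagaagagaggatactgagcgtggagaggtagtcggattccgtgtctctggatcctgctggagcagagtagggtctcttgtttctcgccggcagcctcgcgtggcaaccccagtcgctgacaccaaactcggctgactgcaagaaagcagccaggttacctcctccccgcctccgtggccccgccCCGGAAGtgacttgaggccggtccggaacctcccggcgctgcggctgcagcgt
Of the 51 members, 43 had such a window. A gene could have several windows (32851 for 27025 genes) and was counted if any of them matched, while the lines above hold the first. TGACNNNGC was found in 5 of the 43 members (11.6%), Psmb5, Psmb6, Psmc6, Psmd9 and Psmd12, against 11.5% of 27025 genes with a window. CCAAT was found in 16 (37.2%), against 37.5% of all. CCGGAAG was found in 13 (30.2%), against 7.83% of all. The genes compared were all those with a window, not matched to the members for expression or base content, and the source of the difference was not tested. By role, CCAAT was found for 5 of 7 α-ring genes and CCGGAAG for 1 of 7. Of the β ring 4 genes had a window, with CCAAT in 1 and CCGGAAG in 0. In 19S, CCGGAAG was found for 3 of 5 ATPase genes and for 5 of 9 non-ATPase genes with a window. CCAAT was found for 2 of 5 and 2 of 9 of these. These counts describe letters in the windows, and RIP does not measure binding at promoters.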

How the data were processed

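RNA was sequenced from 3 CaMKIIβ RIP, 3 IgG RIP and 2 Input libraries, grouped by their titles. The authors deposited raw read counts per gene, for which the submitters' processing notes name STAR 2.7.3a, featureCounts 2.0.1, cutadapt 2.10, Trim Galore 0.6.4 and the build GRCm38.p6; strand setting, duplicates and reads with several positions are not given in the sources used here. The libraries held 17273957 to 28138289 counts, without molecular identifiers, so that floors cover counting error only. All 8 count columns were mapped and 0 were left over.

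The table has Ensembl identifiers without symbols. RefSeq genes were joined to the gene sharing at least 0.5 of their joint span (48 members, median share 0.994, lowest 0.523), and otherwise, by a rule added after seeing the table, to the 1 longer gene that held at least 0.95 of them with an end within 10 bases (Psma2, Psmc3 and Psmd9).

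Only the libraries compared entered a fit. The quasi-likelihood test of edgeR 4.0.16 (R 4.3.3) was run with TMM, robust dispersion and filterByExpr (minimum count 10, minimum total 15), with Benjamini-Hochberg adjustment over all genes tested and a threshold of 0.05. Errors of log2 fold changes are SE, and intervals are 95%. The test was tried on simulated counts first. Genes given in every library were the catalytic and immunoproteasome β subunits, Psmc5, Psmd4, Psmd14, Psme3, Psme4 and Psmf1, in each comparison the up to 4 largest rises and falls past the threshold, or the 3 smallest p-values where none passed, and for the companion genes the up to 2 largest each way, of which 1 gene is not reported here. Psma7, Psmd2 and Psme1 were added after their values were seen. The members and lists were chosen with earlier results of these data known.

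Alternatives were RLE and library size scaling, a minimum of 10 counts throughout a group, no count filter, limma-voom (limma 3.58.1), DESeq2 1.42.0, all 8 libraries in 1 fit, the replicate number as a block, removal of the trend on exon length (loess span 0.5), a span share of 0.8, each library left out, and, added after seeing the data, the tests without the 3 genes joined inside a longer one. Python 3.11.15, pandas 2.3.3 and matplotlib 3.10.9 made the tables and figures. Protein sequences were not used here. Promoter windows came from RefSeq on GRCm38.p6.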

Additional observations from a re-analysis of the deposited data

How the results depend on the processing

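Between the antibodies, 0 members passed under every alternative run, each library left out included. Of CaMKIIβ RIP against Input (0 higher, 4 lower), the count of higher members was 1 with RLE scaling, 10 counts in every library of a group or limma-voom, 2 with all 8 libraries in 1 fit or the exon length trend removed, and 3 with no count filter, DESeq2 or the replicate block. The count of lower members was 8 with library size scaling, 11 with all 8 libraries, 10 with the replicate block and 2 with the exon length trend removed. Leaving out 1 library gave 0 to 3 higher and 0 to 8 lower. Of IgG RIP against Input (10 higher, 18 lower), library size scaling gave 4 higher, all 8 libraries gave 1 higher and 10 lower, and leaving out 1 library gave 5 to 10 higher and 12 to 18 lower; the replicate block gave 10 higher and 16 lower, and removing the exon length trend gave 12 higher and 13 lower. No named gene changed sign while past the threshold. The cause of these shifts was not tested. The labels do not say whether the numbers of the libraries pair them, and Input has no replicate 3. Deviations from the group mean correlated at 0.003, -0.03 and -0.08 in the 3 same-number pairs of CaMKIIβ RIP and IgG RIP. With Input they correlated at 0.12 and 0.08 for CaMKIIβ RIP and at 0.008 and 0.01 for IgG RIP. These correlations cannot decide whether libraries were paired, and the deviations of 2 Input libraries mirror each other. Without Psma2, Psmc3 and Psmd9, the counts were 0 and 4, and 9 and 17. Depth limits what can be said of Psmb8, Psmb9, Psmg4 and Psmc3ip, and nothing is said of Psma8, Psmb11 and Psme2b.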
